A study of Mus musculus with 7 samples.

Results

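The genes described here encode the oxidative phosphorylation machinery that is made from the nuclear genome, in fibroblasts sorted from postnatal mouse hearts. They were taken by symbol: those starting with Nduf and a, b, c, s or v followed by a digit, with Sdh followed by a, b, c or d, or with Uqcr, Cox4, Cox5, Cox6, Cox7, Cox8 or Atp5. Of the 54735 symbols counted, 100 started in that way. Pseudogene symbols accounted for 8 of them and were left out, as was Ndufa4l2. Another 6, Cox7b2, Ndufs6b, Cox6c2, Cox8c, Ndufb4c and Ndufa11b, did not reach 10 counts in each of the 7 libraries and held 13 counts or fewer in any of them. The remaining 85 genes were all tested, and a library held from 26 counts (Cox6b2) to 15023 counts (Atp5b) of a gene. By complex they comprised 35 genes of complex I, 4 of complex II, 8 of complex III, 16 of complex IV (with Ndufa4, now assigned there) and 16 of complex V. The other 6 are taken in by their symbols but are not subunits: Sdhaf1, Sdhaf2, Sdhaf3, Sdhaf4, Atp5s and Cox7a2l.

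The libraries formed 3 groups. Tcf21 P30 (n = 3) came from mice of the genotype Tcf21MCM;R26eGFP aged 30 days, Postn P7 (n = 2) from PostnMCM;R26eGFP mice aged 7 days, and Tcf21 P7 (n = 2) from Tcf21MCM;R26eGFP mice aged 7 days. Every group carried the same eGFP reporter at R26, which a tamoxifen-dependent recombinase (MCM) driven by Tcf21 or Postn switches on. Animals of both sexes were pooled, and RNA came from cells sorted by flow cytometry for GFP. The series was made to describe fibroblast subpopulations of the heart after birth. Tcf21 is a transcription factor found in resident fibroblasts of the heart, and Postn encodes periostin, a secreted matrix protein.

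Oxidative phosphorylation is carried out in the inner mitochondrial membrane. Complex I (NADH dehydrogenase) and complex II (succinate dehydrogenase) pass electrons to coenzyme Q, complex III (the cytochrome bc1 complex) passes them to cytochrome c, and complex IV (cytochrome c oxidase) reduces oxygen. Complex V, the ATP synthase, uses the proton gradient that complexes I, III and IV build up. Most subunits are encoded in the nucleus and imported, while a small set of core subunits is encoded by mitochondrial DNA. Heart muscle is known for a high content of these complexes and for muscle forms of several complex IV subunits.

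The libraries held 15207835 to 18519528 counts. All 10 fibroblast markers were present in every library, with a summed level of 35404 to 48737 CPM (counts relative to the library total, normalised between libraries and set to a common total). The 13 cardiomyocyte markers, none at 0 in any library, summed to 785 to 1527 CPM in Tcf21 P30, to 802 and 1758 CPM in Postn P7 libraries and to 1450 and 1606 CPM in Tcf21 P7. Replicate 1 of Tcf21 P30 and replicate 1 of Postn P7 held the most endothelial transcripts, 4076 and 1762 CPM summed over 12 markers with none at 0, against 1061 to 1296 CPM in the other 5 libraries. The 12 macrophage markers, none at 0, summed to 420 to 627 CPM in Tcf21 P30 and to 338 and 459 CPM in Postn P7 libraries, against 1183 and 1193 CPM in Tcf21 P7. Malat1, a nuclear RNA, was at 1406 to 1558 CPM in Tcf21 P30 and at 1161 and 1374 CPM in Postn P7 libraries, against 341 and 354 CPM in Tcf21 P7. Pericyte and smooth muscle transcripts (10 markers, none at 0) set the P7 groups apart. Their sums were 2654 and 1949 CPM for the Postn P7 libraries, above the 1457 and 1449 CPM of Tcf21 P7. Among Tcf21 P30 libraries, replicate 1 held 2093 CPM of them, while replicates 2 and 3 held 1008 and 1069 CPM. The part of these differences in the results that follow was not tested.

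Promoters of 69 of the 85 genes were found in RefSeq (GRCm38.p6, 250 bases before to 50 after the start). They were searched on both strands for the motifs of factors known to act on respiratory genes. The NRF1 motif (GCGCA, any base, then GCGC) was present in 19 of the 69 promoters (27.5%), against 10.3% of the promoters of all tested genes with an entry and 5.19% of all promoters in the table. The ETS motif CCGGAAG, read by GABP, was present in 19 (27.5%), against 18.1% of tested genes and 9.93% of all. The YY1 motif AAGATGGCG stood in 7 (10.1%), against 3.13% and 1.64%, and the ERR motif TCAAGGTCA in 2 (2.9%), against 0.296% and 0.466%. No base shown in capitals below belongs to more than 1 motif, and a match describes the letters only. Promoters of 5 genes on which the later comparisons turn are shown with motif matches in capitals: Atp5o and Ndufs3, called lower in both comparisons with Tcf21 P7; Uqcrc1, called lower with age; Sdha, called in neither; and Cox6b2, which had the largest fold change. They lie at chr16:91931581-91931880 (minus strand), chr2:90904672-90904971 (minus), chr9:108936398-108936697 (plus), chr13:74350191-74350490 (minus) and chr7:4753045-4753344 (minus), in the order in which the sequences follow.
Atp5o: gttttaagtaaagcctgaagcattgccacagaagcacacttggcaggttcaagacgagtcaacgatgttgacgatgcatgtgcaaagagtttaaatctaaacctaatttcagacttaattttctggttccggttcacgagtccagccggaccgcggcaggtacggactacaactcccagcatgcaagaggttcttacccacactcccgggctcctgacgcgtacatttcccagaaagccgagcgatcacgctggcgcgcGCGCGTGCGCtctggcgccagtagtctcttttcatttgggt
Ndufs3: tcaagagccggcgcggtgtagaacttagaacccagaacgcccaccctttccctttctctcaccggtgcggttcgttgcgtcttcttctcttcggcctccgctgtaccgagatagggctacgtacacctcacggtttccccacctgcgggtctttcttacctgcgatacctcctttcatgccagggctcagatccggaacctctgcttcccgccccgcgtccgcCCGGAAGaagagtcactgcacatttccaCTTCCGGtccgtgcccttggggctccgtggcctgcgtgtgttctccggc
Uqcrc1: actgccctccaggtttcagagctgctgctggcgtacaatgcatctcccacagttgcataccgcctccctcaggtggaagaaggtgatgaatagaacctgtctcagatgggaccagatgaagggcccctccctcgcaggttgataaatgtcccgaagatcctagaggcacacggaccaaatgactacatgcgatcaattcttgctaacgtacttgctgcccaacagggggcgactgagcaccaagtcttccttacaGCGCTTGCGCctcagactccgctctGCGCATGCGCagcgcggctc
Sdha: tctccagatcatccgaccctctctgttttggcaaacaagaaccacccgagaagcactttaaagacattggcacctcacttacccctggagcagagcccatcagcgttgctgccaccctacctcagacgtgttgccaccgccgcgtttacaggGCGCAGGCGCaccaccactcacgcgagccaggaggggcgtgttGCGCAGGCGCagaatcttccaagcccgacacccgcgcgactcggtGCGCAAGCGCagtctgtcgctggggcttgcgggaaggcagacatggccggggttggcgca
Cox6b2: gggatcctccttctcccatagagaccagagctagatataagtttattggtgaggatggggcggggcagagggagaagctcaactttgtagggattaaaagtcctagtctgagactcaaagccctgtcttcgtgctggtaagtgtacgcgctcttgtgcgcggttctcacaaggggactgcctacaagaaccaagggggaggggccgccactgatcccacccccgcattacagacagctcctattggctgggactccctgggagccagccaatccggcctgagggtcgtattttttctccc
Sdha held 3 NRF1 matches, starting at -98, -55 and -10 from the start site, Uqcrc1 held 2, at 6 and 31, and Atp5o held 1, at 10. Ndufs3 held 2 ETS matches, at -27 and 2, and Cox6b2 held none of the 4 motifs in this window. Of the 18 genes called lower in Tcf21 P30 than in Tcf21 P7 that had a promoter entry, 6 held the NRF1 motif (33.3%), against 13 of the 51 that were not called (25.5%). Of the 28 called lower in Postn P7 than in Tcf21 P7, 10 held it (35.7%), against 9 of 41 (22%). No test was made of these shares.

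Most oxidative phosphorylation transcripts stood lower in Tcf21 P30 and in Postn P7 than in Tcf21 P7. The levels of the 85 genes summed to 7844, 7159 and 7325 CPM in Tcf21 P30 and to 7175 and 6560 CPM in Postn P7 libraries, against 8891 and 8881 CPM in Tcf21 P7. The Tcf21 P7 libraries were the highest, and the other groups overlapped with each other. In shares of all counts the genes held 0.69% to 0.779% in Tcf21 P30 and 0.673% and 0.776% in Postn P7, against 0.866% in both Tcf21 P7 libraries. The plot of all members by library shows this as a band of higher values in the Tcf21 P7 columns across complexes I to V. In bulk RNA, fewer cells of a type and less RNA per cell cannot be told apart. The labels do not say that libraries came from separate animals or sorts, so p-values measure only the spread between these libraries, which may be technical.

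**Figure D1:**
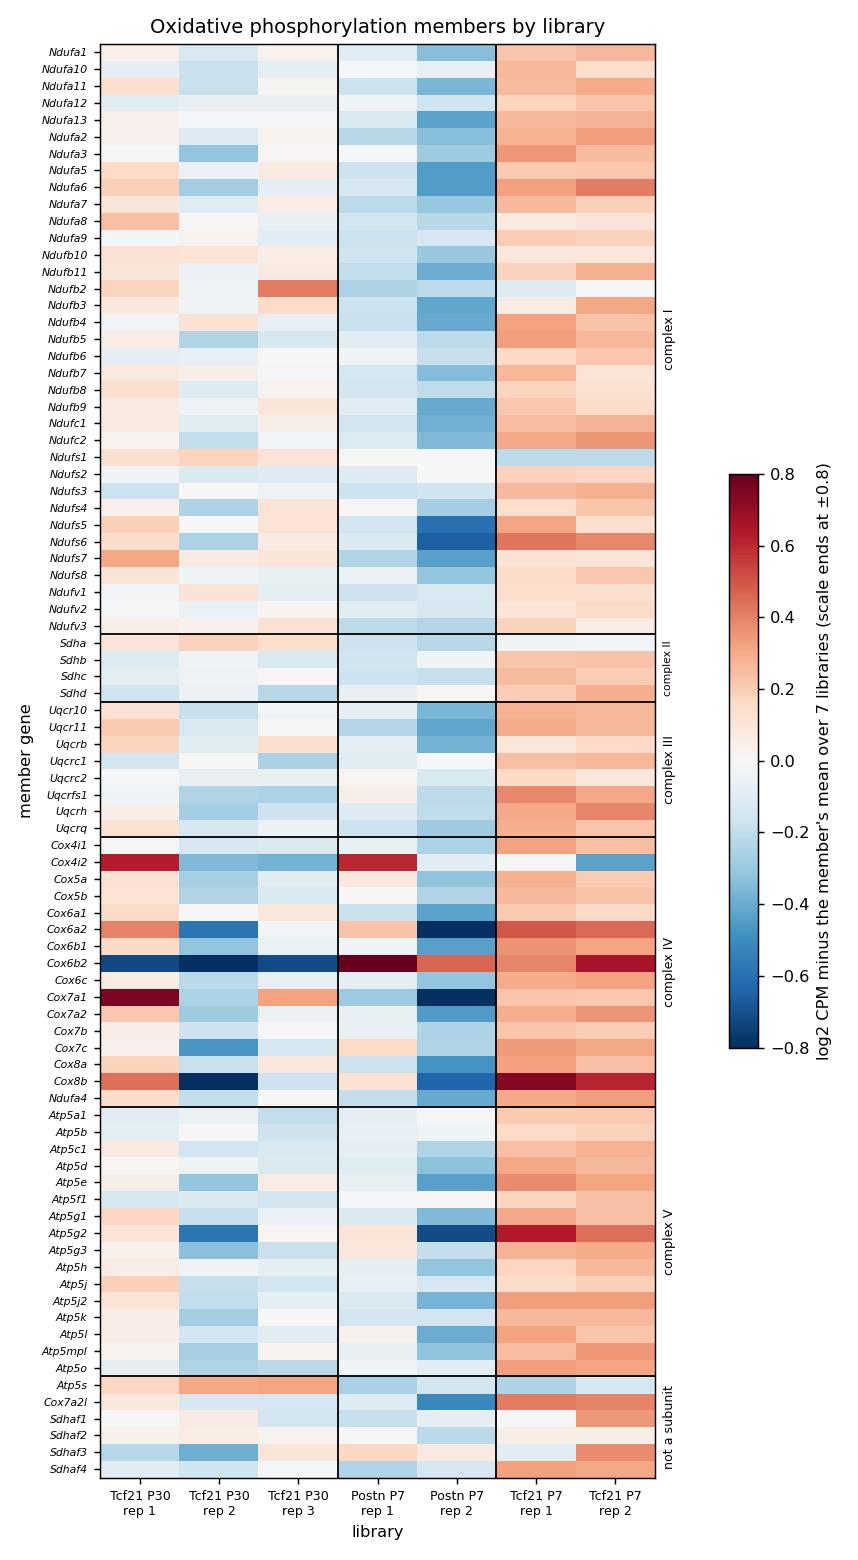
Each row is a gene, ordered by complex, and each column a library, with Tcf21 P30 on the left, Postn P7 in the middle and Tcf21 P7 on the right. Colour gives the gene's log2 CPM minus its mean over the 7 libraries, and the median over the 85 genes was 0.06, -0.12 and -0.02 in Tcf21 P30, -0.09 and -0.28 in Postn P7, and 0.25 and 0.24 in Tcf21 P7.

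Between ages, 25 of the 85 genes (29.4%) were lower and 2 (2.35%) higher in Tcf21 P30 than in Tcf21 P7 (edgeR quasi-likelihood test, Benjamini-Hochberg adjusted p under 0.05 over 17636 genes). Over all genes tested, 15% were called lower and 16.7% higher. All 3 Tcf21 P30 libraries lay below both Tcf21 P7 libraries for 67 of the 85 genes (78.8%), against 29.9% of all genes. The median log2 fold change of the members was -0.27, a level 17.1% lower in Tcf21 P30, against 0.03 over all genes. The count depended on the libraries. It was 4 (4.71%) without Tcf21 P30 replicate 3, 12 (14.1%) without Tcf21 P30 replicate 2 and 39 (45.9%) without Tcf21 P30 replicate 1. In these fits 10.5%, 13.2% and 16.9% of all genes were called lower, so the members exceeded that share clearly only in the last. Without either Tcf21 P7 library, which leaves 1 in that group, most calls were lost and the median was -0.28. With any of these libraries left out, the median stayed between -0.25 and -0.31. Without both endothelial-rich libraries, which leaves 1 Postn P7 library, the median was -0.315.

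Between lineages at P7, 33 of the 85 genes (38.8%) were lower and 0 higher in Postn P7 than in Tcf21 P7, by the same edgeR test. Over all genes, 5.49% were called lower and 6.52% higher. At an unadjusted p under 0.05, 69 of the 85 genes passed (81.2%), 1 of them higher, against 30.4% of all genes. DESeq2 called 44 lower and 0 higher, against 6.83% and 7.41% of all genes. Both Postn P7 libraries lay below both Tcf21 P7 libraries for 80 genes (94.1%), against 32.5% of all genes. The median log2 fold change was -0.42 (25.3% lower), against 0.00 over all genes. These calls were the less stable ones. Without Tcf21 P30 replicate 3, 1 member was lower (1.18%), against 1.91% of all genes. Without either library of Postn P7 or of Tcf21 P7, which leaves 1 in that group, calls were lost among the members and over all genes. The medians of the members were then -0.35 to -0.54. Without both endothelial-rich libraries the median was -0.53, in a fit that takes the spread of the lone Postn P7 library from the other groups. With libraries scaled by their size alone, which moved the median of all genes up by 0.11 log2, 1 gene was lower and 1 higher. Of all genes, 2.68% were lower and 9.87% higher in that fit, and the median of the members was -0.30.

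The comparisons of ages and of lineages share the Tcf21 P7 libraries, so their calls are not independent of each other. The genes called lower in both were Ndufa2, Ndufc2 and Ndufs3 of complex I, Sdhc of complex II, Uqcrh of complex III, Cox4i1 and Cox6c of complex IV, Atp5c1, Atp5d, Atp5j2 and Atp5o of complex V, and Sdhaf4 and Cox7a2l outside the complexes, 13 in all. Another 12 were called lower only between ages and 20 only between lineages. Tcf21 P30 was set against Postn P7 to test the difference between these effects directly.

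In Tcf21 P30 against Postn P7, groups that differ in both lineage and age, 7 of the 85 genes (8.24%) were higher and 1 (1.18%) lower in Tcf21 P30 (edgeR test). Over all genes, 12.5% were called higher and 11.7% lower. The genes called higher were Ndufs7, Ndufb10, Ndufb11 and Ndufv3 of complex I, Sdha, Cox6a1 and Atp5s, and the gene called lower was Cox6b2. All 3 Tcf21 P30 libraries lay above both Postn P7 libraries for 31 genes (36.5%), against 25.9% of all genes. The median log2 fold change was 0.15, against 0.01 over all genes. With library size alone 1 gene was higher and 2 lower, against 9.78% and 15.9% of all genes. Without Tcf21 P30 replicate 3, 1 gene was higher, and without Tcf21 P30 replicate 2 it was 4, against 8.29% and 9.33% of all genes. Without Postn P7 replicate 2, which leaves 1 in that group, the median was 0.07. Without either Tcf21 P7 library it was 0.15. The plot of fold changes by complex shows the 3 comparisons side by side.

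**Figure D2:**
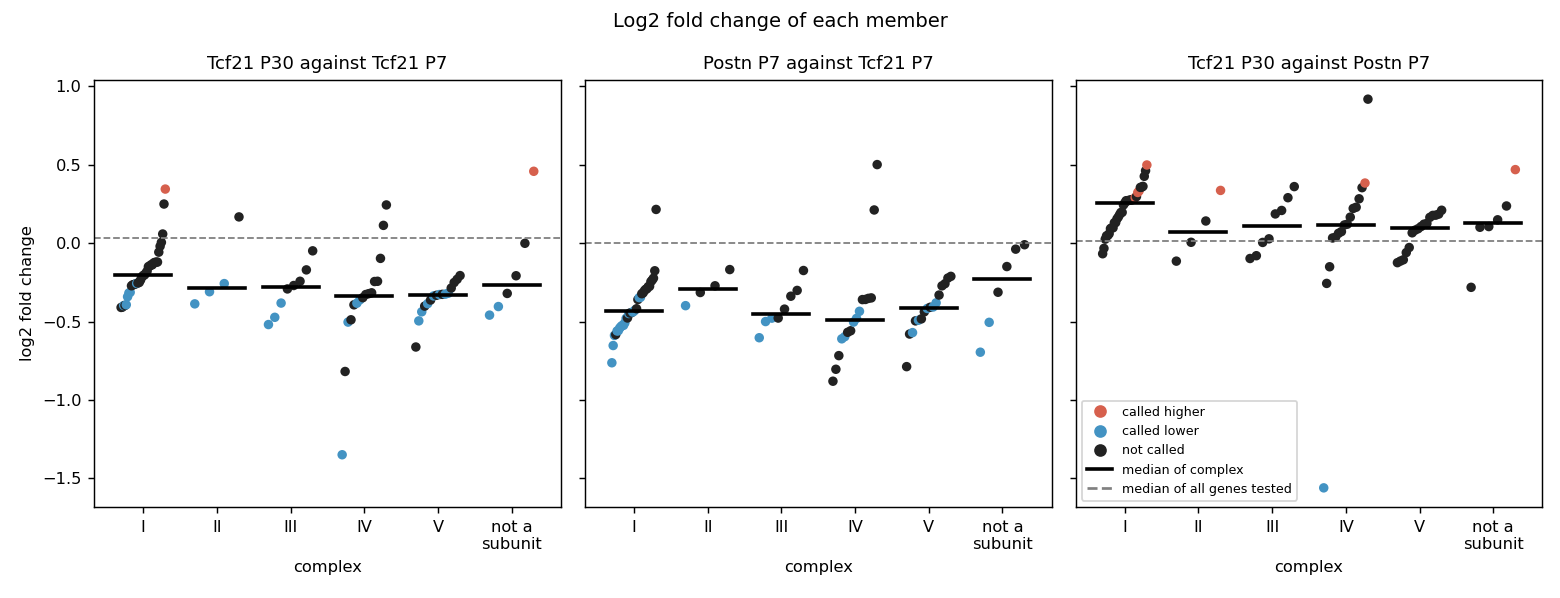
Log2 fold change of each gene, with a panel per comparison and a column per complex. Red points were called higher, blue points lower and black points not called; bars are medians of a complex and the dashed line the median of all genes. In the comparisons of Tcf21 P30 and of Postn P7 with Tcf21 P7, 77 and 82 of the 85 points lie below 0 (47.6% and 49.8% of all genes did), and in the comparison of Tcf21 P30 with Postn P7 most lie above it, with a median of 0.15.

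Gene length moved with the lineage comparison. The members are short, with a median of 1587 exonic bases against 4470 bases over the tested protein-coding genes. Across the 85 genes, Spearman's correlation of length with the log2 fold change of Postn P7 against Tcf21 P7 was 0.51, and it was 0.27 across 13991 protein-coding genes. Genes of 1 library share its depth and quality and are not independent replicates, so these coefficients are descriptions. The 22 members of 1000 bases or fewer had a median log2 fold change of -0.54 in that comparison, the 43 of over 1000 and up to 3000 bases -0.42 and the 20 longer ones -0.29. Over all 317 tested protein-coding genes of 1000 bases or fewer the median was -0.39, and both Postn P7 libraries lay below both Tcf21 P7 libraries for 61.2% of them. With the trend of fold change on length removed from all genes, 0 members were called in the lineage comparison, where 3.63% of all genes were lower and 5.91% higher. The median of the members was -0.18, against 0.05 over all genes, and 21 members were lower and 1 higher at an unadjusted p under 0.05. DESeq2 was not run with that trend removed.

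Length moved less with the comparison of ages. There Spearman's correlation across the members was 0.10, and the medians of the 3 length classes were -0.25, -0.27 and -0.27 in order of length. With the trend removed, 14 members (16.5%) were lower and 2 higher in Tcf21 P30, and all 14 were among the 25. The share called lower was thus near that of all genes in this fit, 14.3%, and 17.4% of all genes were higher. The median of the members was -0.20, against 0.06 over all genes. The cytosolic ribosomal protein genes, another set of short and strongly expressed genes, had medians of -0.52 in Tcf21 P30 and -0.57 in Postn P7, both against Tcf21 P7. Of these 85 genes, 61 (71.8%) and 41 (48.2%) were called lower, against 15% and 5.49% of all genes.

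**Figure D3:**
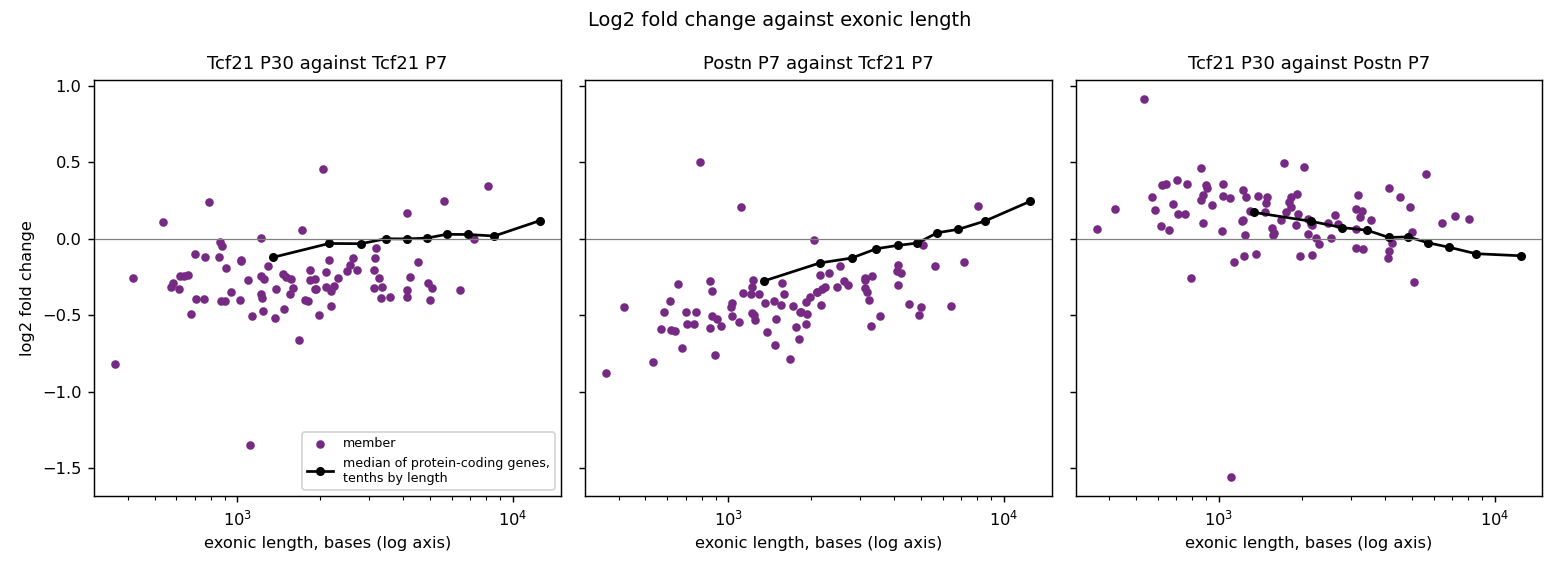
Log2 fold change of the 85 members against exonic length on a log axis, in a panel per comparison, with black points at the medians of all tested protein-coding genes, binned by length. Points fall towards short genes for Postn P7 against Tcf21 P7 (Spearman 0.51) and are nearly level for Tcf21 P30 against Tcf21 P7 (Spearman 0.10).

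Per length, the most abundant members over all 7 libraries were Cox8a at 212 CPM per kilobase, Cox6a1 at 209, Atp5b at 181, Cox6b1 at 167 and Cox4i1 at 143. Complex IV and complex V thus held the top of the order, and the highest gene of complex I, Ndufa2, followed at 133 CPM per kilobase. The least abundant were Sdhaf3 at 1.34, Ndufb2 at 2.92, Cox6b2 at 3.51 and Atp5l at 3.71 CPM per kilobase. Annotated exons that are not used in these cells lower such values, as exonic length counts the exons of all transcripts. The median level was 70.1 CPM per kilobase in complex II, 64.2 in complex III, 51 in complex V, 44.7 in complex I and 43.7 in complex IV.

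Of the 35 genes of complex I, 17 were lower and 0 higher in Postn P7 than in Tcf21 P7 (median log2 fold change -0.43), while 6 were lower and 1 higher in Tcf21 P30 than in Tcf21 P7 (median -0.21). The share called lower between lineages was 48.6%, against 5.49% of all genes. Between ages it was 17.1%, close to the 15% of all genes, and 2.86% were higher, against 16.7%. The 7 core subunits, which carry the flavin and iron-sulfur centres, had medians of -0.28 in Postn P7 and -0.14 in Tcf21 P30, and 2 were called lower in each comparison. The 28 accessory subunits had medians of -0.45 and -0.23, with 15 and 4 called lower. In complex I the largest called falls with age were those of the accessory subunits Ndufb5 (-0.40 ± 0.11, edgeR adjusted p = 0.026) and Ndufc2 (-0.39 ± 0.11, adjusted p = 0.026).

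Ndufa2, an accessory subunit of the matrix arm (chromosome 18, 36742332 to 36744557, GRCm38), had 77.2, 70.1 and 76.7 CPM in Tcf21 P30 and 64.4 and 59.4 CPM in Postn P7 libraries, against 91.3 and 94.9 CPM in Tcf21 P7. No library of a group overlapped with those of another, with Postn P7 lowest and Tcf21 P7 highest. The log2 fold change was -0.59 ± 0.10 (SE) in Postn P7 (edgeR adjusted p = 0.013) and -0.32 ± 0.09 in Tcf21 P30 (adjusted p = 0.027), both against Tcf21 P7. With the length trend removed neither was called (adjusted p = 0.25 in both). Ndufs6, a zinc-binding accessory subunit, showed the largest called fall between lineages, with 58.3, 44.1 and 55.1 CPM in Tcf21 P30 and 48.5 and 33.5 CPM in Postn P7 libraries, against 70.8 and 68.6 CPM in Tcf21 P7. The Postn P7 libraries lay far apart, and their range overlapped with that of Tcf21 P30 but not with Tcf21 P7. Its log2 fold change was -0.76 ± 0.19 in Postn P7 (edgeR adjusted p = 0.042). Ndufa6 (-0.65 ± 0.17, adjusted p = 0.044 by edgeR) and Ndufb4 (-0.56 ± 0.14, adjusted p = 0.041) were also called lower in Postn P7.

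Ndufs1 went the other way. This gene, on chromosome 1 (63143596 to 63176833), encodes the largest core subunit, which carries iron-sulfur clusters. It had 108, 112 and 107 CPM in Tcf21 P30 and 99.9 and 99.3 CPM in Postn P7 libraries, against 85.9 CPM in both Tcf21 P7 libraries. The groups did not overlap, and Tcf21 P7 was the lowest. The log2 fold change was 0.34 ± 0.08 in Tcf21 P30 (edgeR adjusted p = 0.011) and 0.21 ± 0.08 in Postn P7 (adjusted p = 0.13), so that only the rise with age was called. It was called in 15 of the 19 fits made, and not without either Tcf21 P7 library, with these libraries summed or with no filter on low counts.

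Ndufs7 separated Tcf21 P30 from Postn P7. It encodes the core subunit that hands electrons to coenzyme Q (chromosome 10, 80249121 to 80256794). It had 111, 93.2 and 95.5 CPM in Tcf21 P30, 75.3 and 65.9 CPM in Postn P7 libraries and 96.1 and 95.5 CPM in Tcf21 P7. Both Postn P7 libraries were low, while the Tcf21 groups overlapped. The log2 fold change of Tcf21 P30 against Postn P7 was 0.50 ± 0.11 (edgeR adjusted p = 0.012), called in 18 of 19 fits, all but the fit without Postn P7 replicate 2. Ndufs3, a core subunit of the matrix arm whose promoter is shown above, had 35.7, 40 and 39.1 CPM in Tcf21 P30 and 35.7 and 36.1 CPM in Postn P7 libraries, against 48.1 and 48.9 CPM in Tcf21 P7. Ndufv1, which binds NADH, had 122, 133 and 118 CPM in Tcf21 P30 and 110 and 113 CPM in Postn P7 libraries, against 136 and 135 CPM in Tcf21 P7. Ndufs3 was called lower in both groups, by -0.34 ± 0.09 and -0.43 ± 0.10 log2 (edgeR adjusted p = 0.027 in Tcf21 P30 and 0.036 in Postn P7), and Ndufv1 in neither, although no library of either group reached those of Tcf21 P7.

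Complex II showed a split among its 4 subunits. Sdhb, Sdhc and Sdhd were called lower in Tcf21 P30 than in Tcf21 P7, by -0.31 ± 0.08, -0.26 ± 0.08 and -0.39 ± 0.09 log2 (edgeR adjusted p = 0.023, 0.036 and 0.012). Sdhb encodes the iron-sulfur subunit, and Sdhc and Sdhd the membrane anchors. Sdhc was also lower in Postn P7 (-0.40 ± 0.09, edgeR adjusted p = 0.026). Sdha, the flavoprotein that oxidises succinate (chromosome 13, 74322254 to 74350280), had 280, 296 and 287 CPM in Tcf21 P30, 233 and 223 CPM in Postn P7 libraries and 256 and 257 CPM in Tcf21 P7. The 3 groups did not overlap, with Tcf21 P30 the highest and Postn P7 the lowest. Only the difference between these outer groups was called, at 0.34 ± 0.08 log2 for Tcf21 P30 against Postn P7 (edgeR adjusted p = 0.018, in 8 of 19 fits); against Tcf21 P7 the change was 0.17 ± 0.08 in Tcf21 P30 (adjusted p = 0.14) and -0.17 ± 0.09 in Postn P7 (adjusted p = 0.23).

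Of the 8 complex III genes, 3 were called lower in Tcf21 P30 and 3 in Postn P7, both against Tcf21 P7. That is 37.5% in each, against 15% and 5.49% of all genes. The medians of the complex were -0.28 and -0.45. Uqcrfs1 encodes the Rieske iron-sulfur protein (chromosome 13, 30540308 to 30545362). It had 84.1, 73 and 72.2 CPM in Tcf21 P30 and 88.9 and 74.6 CPM in Postn P7 libraries, against 112 and 107 CPM in Tcf21 P7. Tcf21 P7 lay above all other libraries, which overlapped with each other. This was a log2 fold change of -0.52 ± 0.11 in Tcf21 P30 (edgeR adjusted p = 0.0095) and -0.42 ± 0.12 in Postn P7 (adjusted p = 0.061). Uqcrh, the hinge protein that helps cytochrome c to dock, had 81, 64.7 and 69.8 CPM in Tcf21 P30 and 72.9 and 68.2 CPM in Postn P7 libraries, against 96.7 and 103 CPM in Tcf21 P7, and it was called lower in both (-0.47 ± 0.11 and -0.50 ± 0.12, edgeR adjusted p = 0.014 and 0.038). Uqcrc1, a core protein on chromosome 9 (108936633 to 108949623), had 145, 161 and 134 CPM in Tcf21 P30 and 150 and 159 CPM in Postn P7 libraries, against 189 and 192 CPM in Tcf21 P7. Its fall was called between ages (-0.38 ± 0.10, edgeR adjusted p = 0.019) and not between lineages (-0.30 ± 0.11, adjusted p = 0.10). Uqcr11, a small accessory subunit, was lower in Postn P7 (-0.60 ± 0.13, edgeR adjusted p = 0.026).

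In complex IV, 4 of 16 genes (25%) were lower in Tcf21 P30 and 5 (31.25%) in Postn P7, both against Tcf21 P7. Of all genes, 15% and 5.49% were called lower. The medians of the complex were -0.34 and -0.49. Cox4i1, the widely expressed form of subunit 4, which takes part in regulation by ATP (chromosome 8), had 221, 200 and 203 CPM in Tcf21 P30 and 211 and 185 CPM in Postn P7 libraries, against 275 and 260 CPM in Tcf21 P7. Both groups lay below Tcf21 P7 and overlapped with each other. This was a log2 fold change of -0.36 ± 0.09 in Tcf21 P30 (edgeR adjusted p = 0.021) and -0.43 ± 0.10 in Postn P7 (adjusted p = 0.036). Ndufa4, Cox8a, Cox6c and Cox6a1 were called lower in Postn P7 as well, by -0.61, -0.60, -0.50 and -0.48 log2 (SE 0.11 to 0.15, edgeR adjusted p = 0.025 to 0.038). In Tcf21 P30, Cox6c (-0.38 ± 0.11) and Cox7c (-0.50 ± 0.17) were called lower with Cox4i1 and Cox6b2. Cox6a1 stood at 162, 146 and 155 CPM in Tcf21 P30, at 128 and 108 CPM in Postn P7 libraries and at 168 and 162 CPM in Tcf21 P7, so that Postn P7 alone was low.

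Cox6b2 had the largest fold change of all members and the lowest count. It encodes a form of subunit 6b known from testis (chromosome 7, 4751792 to 4753094). Its counts were 33, 26 and 38 in Tcf21 P30, 127 and 74 in Postn P7 and 79 and 94 in Tcf21 P7, which is 2.08, 1.65 and 2.09 CPM in Tcf21 P30, 6.72 and 4.74 CPM in Postn P7 libraries and 4.49 and 5.42 CPM in Tcf21 P7. The Tcf21 P30 libraries were low, and the P7 groups overlapped. This was a log2 fold change of -1.35 ± 0.27 against Tcf21 P7 (edgeR adjusted p = 0.0069) and -1.56 ± 0.26 against Postn P7 (adjusted p = 0.0041), and the difference from Postn P7 was called in all 19 fits. Per length Cox6b2 stood at 1.02% to 1.19% of the level of the widely expressed Cox6b1 in Tcf21 P30, at 3.52% and 3.78% in Postn P7 and at 1.92% and 2.40% in Tcf21 P7.

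The heart and muscle forms of complex IV subunits were present at lower levels than their widely expressed partners and were not called in any comparison. Cox6a2 had 35, 17.8 and 26.2 CPM in Tcf21 P30, 31.1 and 13.6 CPM in Postn P7 libraries and 37.5 and 36.4 CPM in Tcf21 P7. Cox7a1 had 16, 7.99 and 11.9 CPM in Tcf21 P30, 7.77 and 4.87 CPM in Postn P7 libraries and 11.1 CPM in both Tcf21 P7 libraries. Cox8b had 13.4, 4.63 and 8.85 CPM in Tcf21 P30, 10.7 and 6.41 CPM in Postn P7 libraries and 16.5 and 15.1 CPM in Tcf21 P7. In each of these genes replicate 1 of Tcf21 P30 and of Postn P7 was the highest of its group, and the same 2 libraries held the most cardiomyocyte transcripts of their groups, 1527 and 1758 CPM. Per length, Cox6a2 stood at 12.6% to 25% of Cox6a1 and Cox8b at 6.96% to 17.5% of Cox8a over the 7 libraries. Cox4i2, a lung form that responds to oxygen, had 19.4, 9.83 and 9.67 CPM in Tcf21 P30, 19.1 and 11.8 CPM in Postn P7 libraries and 12.6 and 9.35 CPM in Tcf21 P7, with all groups overlapping. The plot of isoform pairs shows these spreads.

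**Figure D4:**
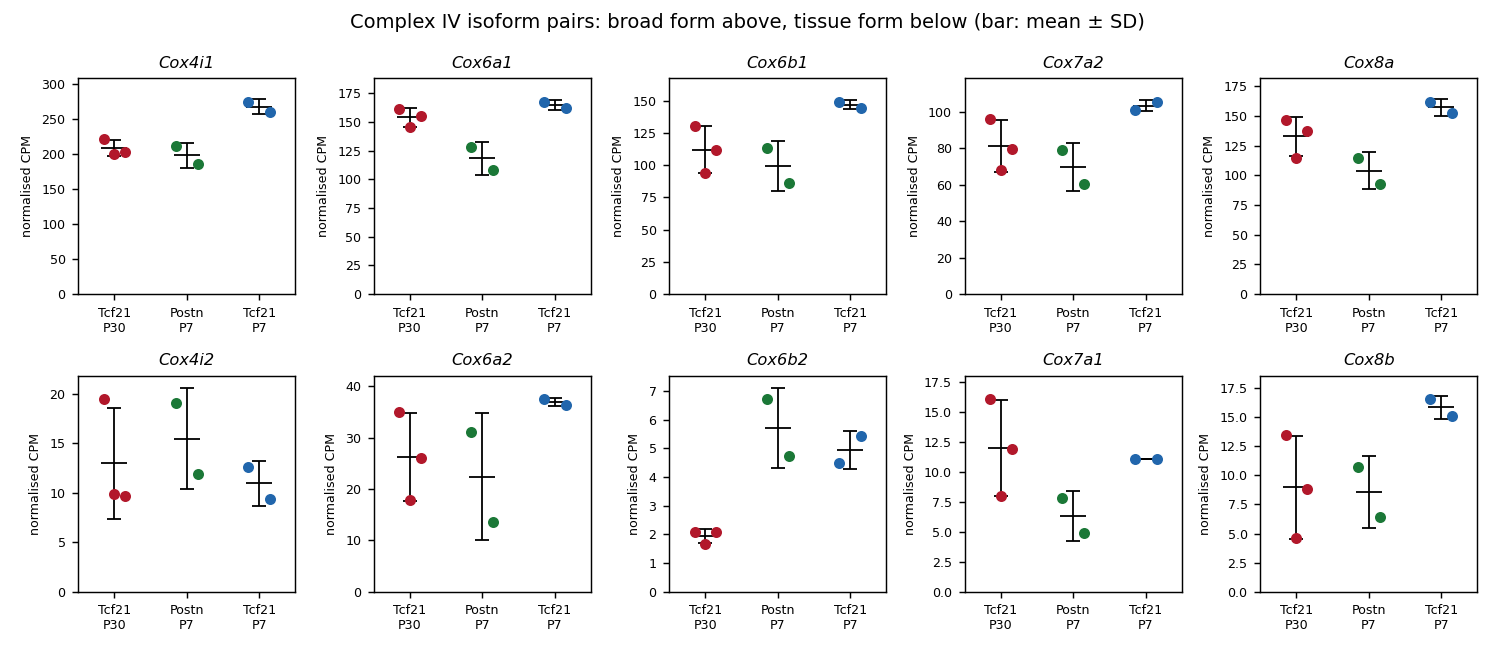
CPM of widely expressed (upper row) and tissue (lower row) forms of complex IV subunits by library, with the mean and SD of each group, in the order Tcf21 P30, Postn P7, Tcf21 P7. Cox6b2 lies at 1.65 to 2.09 CPM in Tcf21 P30, below all P7 libraries, while the muscle forms Cox6a2, Cox7a1 and Cox8b vary among the replicates of Tcf21 P30 and Postn P7.

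In complex V, 7 of 16 genes (43.75%) were lower in Tcf21 P30 than in Tcf21 P7 (median -0.33), and 5 (31.25%) were lower in Postn P7 (median -0.41). Of all genes, 15% and 5.49% were called lower. Of the 5 genes of the catalytic head and central stalk, 3 were called lower with age and 2 between lineages, and of the 4 of the peripheral stalk, 2 and 2. Atp5o encodes the oligomycin sensitivity-conferring protein, which joins the catalytic head to the peripheral stalk (chromosome 16, 91925214 to 91931687). It had 117, 104 and 106 CPM in Tcf21 P30 and 120 and 116 CPM in Postn P7 libraries, against 154 and 152 CPM in Tcf21 P7. The 5 other libraries lay well below Tcf21 P7 and overlapped among themselves. This was a log2 fold change of -0.50 ± 0.08 in Tcf21 P30 (edgeR adjusted p = 0.0035) and -0.38 ± 0.09 in Postn P7 (adjusted p = 0.038). The fall with age was the only one among the members called in all 19 fits of that comparison. This includes the fit with the length trend removed (-0.45, edgeR adjusted p = 0.0056). The fall in Postn P7 was called in 8. Exons of Atp5o overlap with those of D430001F17Rik (17.5% of its length), Gm15976 (18.1%) and, on the same strand, Donson (14.6%). The part of reads from these neighbours in its counts was not tested.

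The catalytic beta subunit gene Atp5b had 722, 763 and 682 CPM in Tcf21 P30 and 729 and 744 CPM in Postn P7 libraries, against 854 and 865 CPM in Tcf21 P7. All libraries of both groups were lower, but neither change was called (-0.25 ± 0.09, edgeR adjusted p = 0.068, and -0.22 ± 0.10, adjusted p = 0.18). Its partner Atp5a1, the alpha subunit, had 300, 307 and 278 CPM in Tcf21 P30 and 301 and 314 CPM in Postn P7 libraries, against 368 CPM in both Tcf21 P7 libraries, and was called lower with age (-0.32 ± 0.08, edgeR adjusted p = 0.023). Atp5c1 and Atp5d, the gamma and delta subunits of the central stalk, were called lower in both groups (-0.33 ± 0.10 each in Tcf21 P30, -0.42 ± 0.11 and -0.49 ± 0.11 in Postn P7). Atp5g1, Atp5g2 and Atp5g3 encode the same mature c subunit of the rotating ring. Atp5g3 had 169, 131 and 146 CPM in Tcf21 P30 and 175 and 145 CPM in Postn P7 libraries, against 200 and 203 CPM in Tcf21 P7, and was called lower with age (-0.44 ± 0.13, edgeR adjusted p = 0.033). Neither Atp5g1 (-0.29 ± 0.12) nor Atp5g2 (-0.66 ± 0.28) was called in that comparison, Atp5g2 with the larger change and the wider spread. The plot of selected members shows these levels by library.

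**Figure D5:**
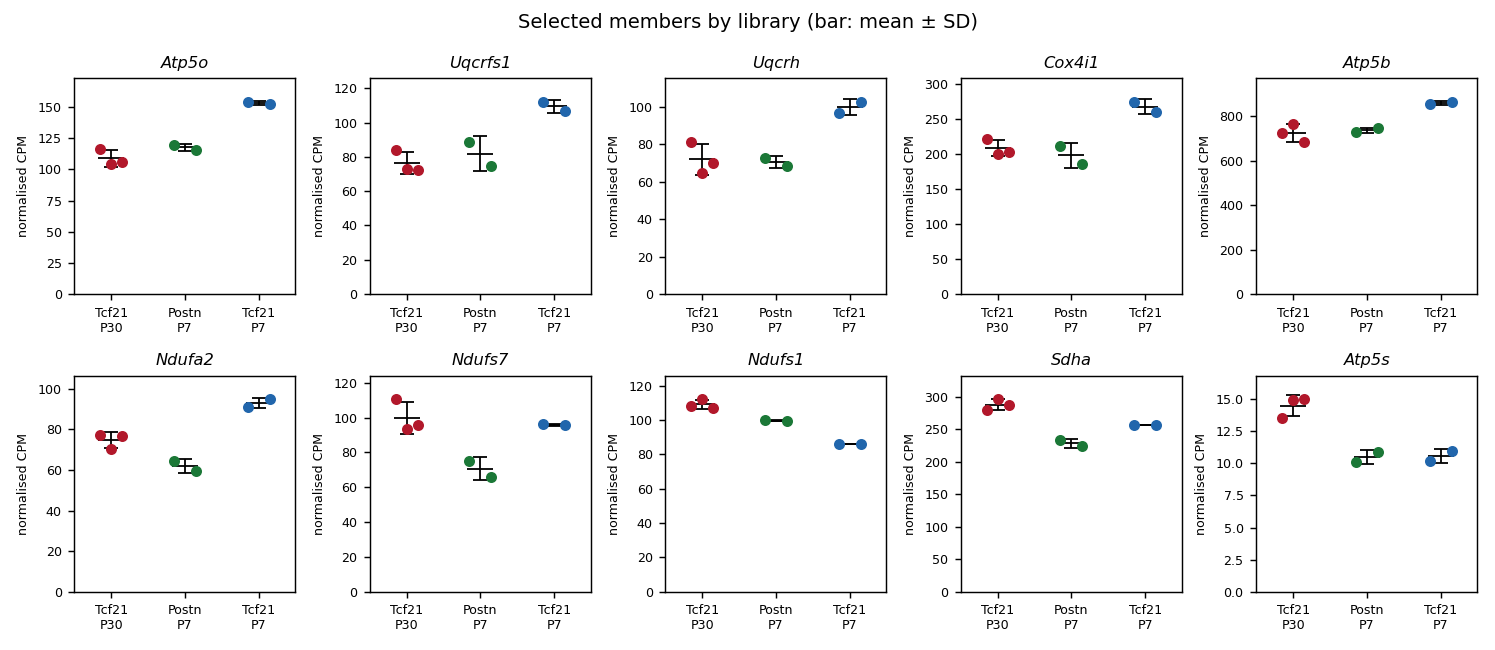
CPM of 10 members by library, with the mean and SD of each group, in the order Tcf21 P30, Postn P7, Tcf21 P7. In the upper row, Atp5o, Uqcrfs1, Uqcrh, Cox4i1 and Atp5b have both Tcf21 P7 libraries above all others; in the lower row, Ndufs1 and Atp5s are highest in Tcf21 P30, and Ndufs7 is lowest in Postn P7.

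Outside the complexes, Atp5s rose with age and Sdhaf4 and Cox7a2l fell. Atp5s, coupling factor B, had 13.6, 15 and 15 CPM in Tcf21 P30, 10.1 and 10.9 CPM in Postn P7 libraries and 10.2 and 11 CPM in Tcf21 P7. Tcf21 P30 stood above both P7 groups, which overlapped, by 0.46 ± 0.14 log2 against Tcf21 P7 (edgeR adjusted p = 0.041) and 0.47 ± 0.14 against Postn P7 (adjusted p = 0.046), called in 7 and 3 of 19 fits. Cox7a2l, which takes part in assembling supercomplexes of complexes III and IV, had 44.7, 38.6 and 38.4 CPM in Tcf21 P30 and 39.3 and 29.5 CPM in Postn P7 libraries, against 56 and 55.6 CPM in Tcf21 P7. It was called lower in both groups (-0.46 ± 0.14 and -0.70 ± 0.15, edgeR adjusted p = 0.036 and 0.028). Sdhaf4, an assembly factor of complex II, changed by -0.40 ± 0.11 in Tcf21 P30 and by -0.51 ± 0.12 log2 in Postn P7 (edgeR adjusted p = 0.027 and 0.039).

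The subunits encoded by mitochondrial DNA did not pass the test, in which 15% of all genes were lower between ages and 5.49% between lineages. Of these 13 genes, 7 had enough counts, and 0 were called in any of the 3 comparisons by edgeR, DESeq2 or limma-voom, nor did any have an unadjusted p under 0.05 in edgeR. Their summed level was 2342, 1226 and 2152 CPM in Tcf21 P30, 2009 and 1287 CPM in Postn P7 libraries and 1938 and 2105 CPM in Tcf21 P7, with a low library in each of the first groups. From 2 to 5 of the 13 genes were at 0 in a library. The most abundant, mt-Cytb of complex III, had 657, 371 and 605 CPM in Tcf21 P30, 533 and 362 CPM in Postn P7 libraries and 520 and 557 CPM in Tcf21 P7.

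Factors that assemble the complexes were mostly not called between ages. Of all genes, 15% were called lower and 16.7% higher between ages, and 5.49% lower and 6.52% higher between lineages at P7. None of the 21 tested assembly factors of complex IV was called in Tcf21 P30 against Tcf21 P7, none of the 6 of complex III, and 1 of the 15 of complex I, Ndufaf4, which was higher (edgeR). At an unadjusted p under 0.05 it was 2 for complex IV and 0 for complex III, and DESeq2 called 0 of either. Ndufaf4 had 26.5, 25.9 and 25.5 CPM in Tcf21 P30 and 24.3 and 21.6 CPM in Postn P7 libraries, against 16.1 and 14.1 CPM in Tcf21 P7. Both groups lay above Tcf21 P7, by 0.78 ± 0.12 (edgeR adjusted p = 0.0026) and 0.61 ± 0.13 log2 (adjusted p = 0.028). In Postn P7 against Tcf21 P7, 2 of the 21 factors of complex IV were called lower, 1 of the 6 of complex III lower and 1 higher, and 1 of the 15 of complex I lower and 1 higher (edgeR). Cox14, an assembly factor of complex IV, had 56.5, 56.1 and 57.2 CPM in Tcf21 P30, 42.3 and 42.1 CPM in Postn P7 libraries and 61.6 and 64.9 CPM in Tcf21 P7. Uqcc2, of complex III, had 50.2, 58 and 54.5 CPM in Tcf21 P30, 34.8 and 32.9 CPM in Postn P7 libraries and 52 and 52.9 CPM in Tcf21 P7. Postn P7 did not overlap with the other groups in either gene, and both were called in Postn P7 against Tcf21 P7 (-0.58 ± 0.09 and -0.63 ± 0.11, edgeR adjusted p = 0.011 and 0.014) and in Tcf21 P30 against Postn P7 (0.42 ± 0.08 and 0.68 ± 0.10, adjusted p = 0.0081 and 0.002). Ttc19, also of complex III, went the other way, with 36, 42.4 and 37.9 CPM in Tcf21 P30, 49.7 and 54.9 CPM in Postn P7 libraries and 37.7 and 32.8 CPM in Tcf21 P7. Postn P7 was the highest without overlap, at 0.57 ± 0.13 log2 against Tcf21 P7 (edgeR adjusted p = 0.029), and Tcf21 P30 against Postn P7 was at -0.43 ± 0.11 (adjusted p = 0.028).

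Atpif1 and Usmg5, which belong to a list of regulators of the ATP synthase, fell with age. Atpif1, the inhibitor protein of the ATP synthase, had 77.1, 69.5 and 72.4 CPM in Tcf21 P30, 116 and 99.7 CPM in Postn P7 libraries and 128 and 134 CPM in Tcf21 P7. Tcf21 P30 was the lowest and did not overlap with either P7 group, at -0.84 ± 0.10 against Tcf21 P7 (edgeR adjusted p = 0.00058) and -0.57 ± 0.10 against Postn P7 (adjusted p = 0.0042). Usmg5, a small protein of the ATP synthase, changed by -0.77 ± 0.17 against Tcf21 P7 (edgeR adjusted p = 0.012). These were 2 of the 5 genes tested on that list, where 15% of all genes were called lower between ages.

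Regulators of mitochondrial biogenesis had few calls, but few genes were tested. Of all genes, 15% were called lower and 16.7% higher between ages, and 5.49% and 6.52% between lineages. In Tcf21 P30 against Postn P7, 11.7% of all genes were lower and 12.5% higher. A set of 14 genes is too small to tell few calls from such shares. Of 14 tested, 1 was called lower in Tcf21 P30 than in Tcf21 P7 and 0 were called in Postn P7 against Tcf21 P7 or in Tcf21 P30 against Postn P7 (edgeR, and likewise DESeq2; 2 and 0 at an unadjusted p under 0.05). The gene called was Pprc1, a coactivator related to PGC-1alpha, with 80.3, 87.1 and 94.5 CPM in Tcf21 P30 against 111 and 109 CPM in Tcf21 P7 (-0.34 ± 0.09, edgeR adjusted p = 0.029). Gabpa, the DNA-binding part of GABP, had 143, 125 and 135 CPM in Tcf21 P30, 133 and 131 CPM in Postn P7 libraries and 123 and 120 CPM in Tcf21 P7 and was called in no comparison.

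Genes that feed the chain were called in both directions between ages, as genes in general were. Between lineages at P7 the calls were all lower, 3 in fatty acid oxidation and 5 in glycolysis, with 0 in the tricarboxylic acid cycle. Of all genes tested, 15% were called lower and 16.7% higher between ages, and 5.49% lower and 6.52% higher between lineages. The tricarboxylic acid cycle had smaller shares between ages by edgeR, 11.1% lower and 5.56% higher. Of 18 genes of the tricarboxylic acid cycle, 2 were lower and 1 higher in Tcf21 P30 than in Tcf21 P7 by edgeR. DESeq2 called 3 lower and 1 higher there, against 15% and 16.4% of all genes. In Postn P7 against Tcf21 P7, 0 were called by either tool, and 4 had an unadjusted p under 0.05 in edgeR. Idh2, the mitochondrial NADP-dependent isocitrate dehydrogenase, had 137, 124 and 109 CPM in Tcf21 P30, 293 and 314 CPM in Postn P7 libraries and 350 and 357 CPM in Tcf21 P7. Tcf21 P30 stood far below both P7 groups, at -1.52 ± 0.11 against Tcf21 P7 (edgeR adjusted p = 7.1e-05) and -1.30 ± 0.11 against Postn P7 (adjusted p = 0.00012), a larger change than that of any of the 85 members but Cox6b2 in the second. Of 18 genes of fatty acid oxidation, 4 were lower (22.2%) and 2 higher (11.1%) in Tcf21 P30 than in Tcf21 P7. In Postn P7, 3 were lower (16.7%) than in Tcf21 P7. Higher in Tcf21 P30 than in Postn P7 were 5 (27.8%), against 12.5% of all genes. Among these was Etfa, which passes electrons towards coenzyme Q (138, 146 and 151 CPM in Tcf21 P30 against 103 and 104 CPM in Postn P7 libraries, 0.49 ± 0.08, edgeR adjusted p = 0.0034).

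Of 16 glycolysis genes, 7 were higher (43.75%) and 1 lower (6.25%) in Tcf21 P30 than in Postn P7, against 12.5% and 11.7% of all genes. Between ages, 2 were higher (12.5%) and 3 lower (18.75%) in Tcf21 P30 than in Tcf21 P7, near the 16.7% and 15% of all genes. Pfkp, the platelet form of phosphofructokinase, had 212, 249 and 213 CPM in Tcf21 P30, 94.6 and 107 CPM in Postn P7 libraries and 116 CPM in both Tcf21 P7 libraries. Tcf21 P30 did not overlap with either P7 group and was higher, by 1.16 ± 0.11 against Postn P7 (edgeR adjusted p = 0.00019) and 0.96 ± 0.11 against Tcf21 P7 (adjusted p = 0.00049). The muscle form Pfkm and the liver form Pfkl were lower in Tcf21 P30 than in Tcf21 P7 (-0.56 ± 0.08 and -0.62 ± 0.17, edgeR adjusted p = 0.0022 and 0.028). In Postn P7, 5 of the 16 glycolysis genes (31.25%) were lower than in Tcf21 P7, against 5.49% of all genes. Gapdh was among them (-0.44 ± 0.10, edgeR adjusted p = 0.036).

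The members are small, conserved genes with processed pseudogenes, and reads of such copies may have been shared out by the authors' counting. Among the pseudogene symbols left out, Ndufb1-ps held 496 to 922 counts per library. It is no example of a processed copy: its 1153 exonic bases are spread over chromosome 12 from 101968090 to 101977068. No Ndufb1 is among the members. Exons of 31 members overlapped with another gene. In 3 of them (Ndufa13, Ndufb6 and Sdhaf1) a single neighbour covered 25% or more of their length. Overlaps with several neighbours, as in Atp5o, were not added up. The strand setting of the counting was not given in the sources used here, so reads of such neighbours cannot be told apart.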

How the data were processed

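RNA of GFP-positive cardiac fibroblasts was sequenced in 7 libraries on an Illumina HiSeq 2500, per the labels' protocols. The authors deposited raw counts per gene symbol, with a column per library and no normalization. The submitters' processing notes name STAR and the build GRCm38. The sources used here do not state how reads were counted, on which strand or with which annotation release.

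The count table was analysed with edgeR 4.0.16 in R 4.3.3. After filterByExpr, 17636 genes remained. Library scaling used TMM (trimmed mean of M values), and a robust quasi-likelihood model with 1 mean for each group was fitted to all 7 libraries. Calls use the F-test with Benjamini-Hochberg adjusted p under 0.05 over all genes tested. The SE of a log2 fold change is its size divided by the square root of F. CPM are counts divided by the scaled library size, on a common total. The procedure was tested on simulated counts. The planted changes were larger than most changes of the members, so that test does not cover changes of their size. Exonic lengths came from the GENCODE annotation of GRCm38, and promoters from RefSeq. DESeq2 1.42.0 and voom of limma 3.58.1 were alternatives. The 19 fits cited are the alternatives in scaling, tool, filter, trend correction, block and libraries. No replicate pair agreed within sampling noise: chi-squared per degree of freedom was 9.9 to 38.1 in Tcf21 P30, 18.4 in Postn P7 and 3.43 in Tcf21 P7.

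The members, the other gene lists and the tests were chosen with earlier results of these data known. Named by rule were, per comparison and complex, up to 4 called members in each direction with the largest change and the most abundant member per length, the core subunits and tissue-form pairs, and from each other list up to 3 called genes without overlap or else the most expressed. Other genes shown were chosen after their values were seen.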

Additional observations from a re-analysis of the deposited data

How the results depend on the processing

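No called value of a named gene changed direction under any alternative, and the median log2 fold change of the members kept its sign in each, from -0.20 to -0.32 for Tcf21 P30 against Tcf21 P7, from -0.18 to -0.54 for Postn P7 against Tcf21 P7 and from 0.02 to 0.29 for Tcf21 P30 against Postn P7. Counts of calls moved, and the cause was not tested unless given here. Of the members higher in Tcf21 P30 than in Tcf21 P7 (2), 1 was called by DESeq2, 1 with the GC content trend removed, 1 with only the 2 groups compared, 1 among subunits and 0 with no filter on low counts. Of all genes, 11% to 17.2% were called higher in these fits. Of the 25 members lower in Tcf21 P30 than in Tcf21 P7, 14 stayed called with the length trend removed, which added none. That is 16.5% of the members, near the 14.3% of all genes called lower in that fit. With the GC content trend removed 19 were lower (22.35%), 12 of them among the 25, against 13.5% of all genes. Without both endothelial-rich libraries 51 were lower, the 25 included. With the 2 Tcf21 P7 libraries summed to 1, a fit with fewer samples, the median was -0.28. For Postn P7 against Tcf21 P7 (33 lower), upper-quartile scaling gave 21, library size alone 1 lower and 1 higher, the length trend removed 0, the GC trend removed 20, Tcf21 P7 libraries summed 0, and without both endothelial-rich libraries 57. For Tcf21 P30 against Postn P7 (7 higher, 1 lower), upper-quartile scaling gave 3 higher, library size alone 1 higher and 2 lower, no filter 3 higher, the length trend removed 2, only the 2 groups compared 1, Tcf21 P7 libraries summed 1 and without both endothelial-rich libraries 16. Among members with 100 or more counts in each library 0 were lower, since Cox6b2 has fewer.

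Leaving out each library in turn gave 1 to 39 members lower and 0 to 2 higher in Tcf21 P30 than in Tcf21 P7, 0 to 43 lower in Postn P7 than in Tcf21 P7, and 0 to 8 higher in Tcf21 P30 than in Postn P7; a lone library is then taken to vary like the other groups.

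Equal replicate numbers are not said to mark a shared litter or day, and deviations of equally numbered libraries correlated at 0.04 to 0.31. With the replicate number as a block, 17 members were lower and 1 higher in Tcf21 P30 than in Tcf21 P7, against 12.4% and 13.4% of all genes. In that fit 24 were lower in Postn P7 than in Tcf21 P7 (4.06% of all genes), and 2 higher in Tcf21 P30 than in Postn P7 (9.85%).

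With 2 or 3 libraries a group, changes of the size seen here, mostly under 0.6 log2, lie close to the threshold. Members had a median of 1265 counts per gene and library, and Cox6b2 had 26 to 127.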
